A study of Mus musculus with 84 samples.

Results

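Collagen chain genes were followed through the reprogramming of mouse embryonic fibroblasts (MEFs) to induced pluripotent stem cells. Members were all genes of the deposited count table whose symbol has the form of a collagen chain (Col, a type number, a, a chain number), which were 44 of 18909 genes. RNA-seq with single-cell tagged reverse transcription (STRT), a method that reads the 5' ends of transcripts, had been done on 10 groups with 3 biological replicates each. MEFs were wild-type cells of the 129 background, grown in medium with FGF2 (5 ng/ml) plus heparin (1 ng/ml), and they were not sorted. ESCs were the TNG MKOS line of the 129 background, which carries a Nanog-GFP reporter at 1 Nanog allele and the MKOS cassette, from which doxycycline induces the reprogramming factors c-Myc, Klf4, Oct4, Sox2 together with an mOrange reporter, grown with 100 U/ml LIF. The reprogramming cells were MEFs with the same reporter and cassette, taken from chimeric embryos and grown as a minority among wild-type MEFs in ESC medium with LIF, 300 ng/ml doxycycline and vitamin C. They had been infected with an expression vector for a blue fluorescent protein (Cont) or for constitutively active Smad3 (+Sm3CA), and were harvested on days 3, 6, 8 and 10 and sorted for mOrange. The cassette, doxycycline and vector infection were therefore shared by Cont and +Sm3CA, while MEFs differed from day 3 cells also in medium, sort and genotype, and these cannot be told apart.

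Collagens are proteins of the extracellular matrix whose chains wind into long helices. Most are secreted, while a few types are transmembrane. Fibrillar collagens (types I, II, III, V, XI and relatives) form the tensile fibres of connective tissue. Type IV collagen forms the network of basement membranes, and type VI forms beaded filaments around cells. FACIT collagens (such as types XII and XIV) bind to the surface of fibrils, and type VIII builds hexagonal lattices. Fibroblasts are the main producers of types I, III and V. In fibroblasts TGF-β signaling through SMAD3 is known as an activator of type I and type III collagen genes.

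Promoter windows of 300 bases are shown for a type I chain, for both chains of the head-to-head type IV pair, which were called on day 10 in +Sm3CA against Cont, and for Col3a1, which was not. Windows of Col1a1 and Col5a2 were not analysed here. Windows run from 250 bases before to 50 bases after the transcript start and are RefSeq sequences of GRCm38.p6, which held windows for 35 of the 44 members. Capitals mark CAGAC, the core of the SMAD binding element, and CCAAT, the CCAAT box, each on either strand (GTCTG and ATTGG). Col1a2 lies on chromosome 6 (window chr6:4505368-4505667, plus strand) and Col3a1 on chromosome 1 (chr1:45311288-45311587, plus strand). Col4a1 (chr8:11312777-11313076, minus strand) and Col4a2 (chr8:11312555-11312854, plus strand) start head to head on chromosome 8.
Col1a2: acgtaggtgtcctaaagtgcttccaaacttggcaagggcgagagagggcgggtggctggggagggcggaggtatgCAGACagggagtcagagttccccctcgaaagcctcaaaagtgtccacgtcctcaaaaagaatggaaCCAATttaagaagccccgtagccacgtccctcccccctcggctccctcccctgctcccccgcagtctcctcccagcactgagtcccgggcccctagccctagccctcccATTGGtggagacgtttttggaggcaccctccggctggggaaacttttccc
Col3a1: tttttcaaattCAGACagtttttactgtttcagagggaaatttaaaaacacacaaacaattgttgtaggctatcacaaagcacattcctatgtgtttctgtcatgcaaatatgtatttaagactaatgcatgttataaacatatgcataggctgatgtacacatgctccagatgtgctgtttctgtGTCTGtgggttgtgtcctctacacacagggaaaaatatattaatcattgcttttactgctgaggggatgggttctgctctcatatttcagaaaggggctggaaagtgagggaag
Col4a1: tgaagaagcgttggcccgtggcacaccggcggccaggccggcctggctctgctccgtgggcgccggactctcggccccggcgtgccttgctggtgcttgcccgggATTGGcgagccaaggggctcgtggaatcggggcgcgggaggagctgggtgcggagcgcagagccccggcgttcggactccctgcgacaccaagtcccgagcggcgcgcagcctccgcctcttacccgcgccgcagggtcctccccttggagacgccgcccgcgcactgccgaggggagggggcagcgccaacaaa
Col4a2: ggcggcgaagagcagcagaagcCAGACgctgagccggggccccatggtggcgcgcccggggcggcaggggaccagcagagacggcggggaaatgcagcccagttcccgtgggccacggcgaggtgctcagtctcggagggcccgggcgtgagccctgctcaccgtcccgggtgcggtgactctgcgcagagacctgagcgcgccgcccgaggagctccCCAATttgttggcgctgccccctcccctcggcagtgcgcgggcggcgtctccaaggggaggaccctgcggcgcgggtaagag
CAGAC or its complement was present in the windows of Col1a2, Col3a1 and Col4a2 and was not found in that of Col4a1. It was also present in those of Col5a1, Col8a1 and Col11a1, the other called members with a window. It occurred in 49.6% of all 32851 promoter windows and in those of 20 of the 35 members. CCAAT or its complement was found in the windows of Col1a2, Col4a1 and Col4a2, in 37.4% of all windows and in those of 13 of the 35 members. For both motifs a member was counted once if any of its windows had a hit, and the 35 members had 38 windows. The share of all is per window, so the member counts and these shares differ in unit. The windows of Col4a1 and Col4a2 shared 78 bases (chr8:11312777-11312854), and the annotated genes overlapped by 85 bases at their 5' ends, where STRT reads arise. For Col4a1 the annotated gene reaches to 11312889, past the transcript start used for its window. STRT keeps the strand of a transcript, but whether the counting used it is not given in the sources used here, so reads of Col4a1 and Col4a2 in this overlap may have been split between the genes. Col3a1 and Col5a2 were also neighbours, 24.6 kb apart on chromosome 1 on opposite strands.

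The 30 libraries held 1008596 to 2296059 reads, and a gene with 3 reads or fewer in a library was taken as undetected there. Of the 44 members, 14 had a mean of at least 50 normalized counts in some group, 21 a mean of at least 10, and 9 never had more than 3 reads in any library. Only 19 members passed the filter on low counts in the fit of all libraries and 17 in the fit of the 24 reprogramming libraries, so those passed through the groups in which they were high. The Smad3 counts, which combine the endogenous gene and the vector, were 184, 89.0 and 126 in +Sm3CA and 18.7, 5.19 and 8.94 in Cont on day 3. On day 10 the Smad3 counts were 47.7, 32.8 and 44.3 in +Sm3CA and 14.8, 21.5 and 25.4 in Cont, and this difference was not called (edgeR adjusted p = 0.12). MEFs had reads in all 12 fibroblast markers of a fixed list, with a summed level of 7856 to 10000.1, and ESCs had a summed level of 28339 to 53681 for 8 pluripotency markers. The series text calls the replicates biological without naming animals or cultures, so p-values measure the spread between these samples, which may be partly technical. In Cont on day 10, replicate 1 stood apart from replicates 2 and 3 in most collagens, and for most collagen genes the fold changes that rest on it are given with and without it. Where a library is left out or another alternative is used, counts of members called are given alone. The share of all genes called there is not given here.

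**Figure D1:**
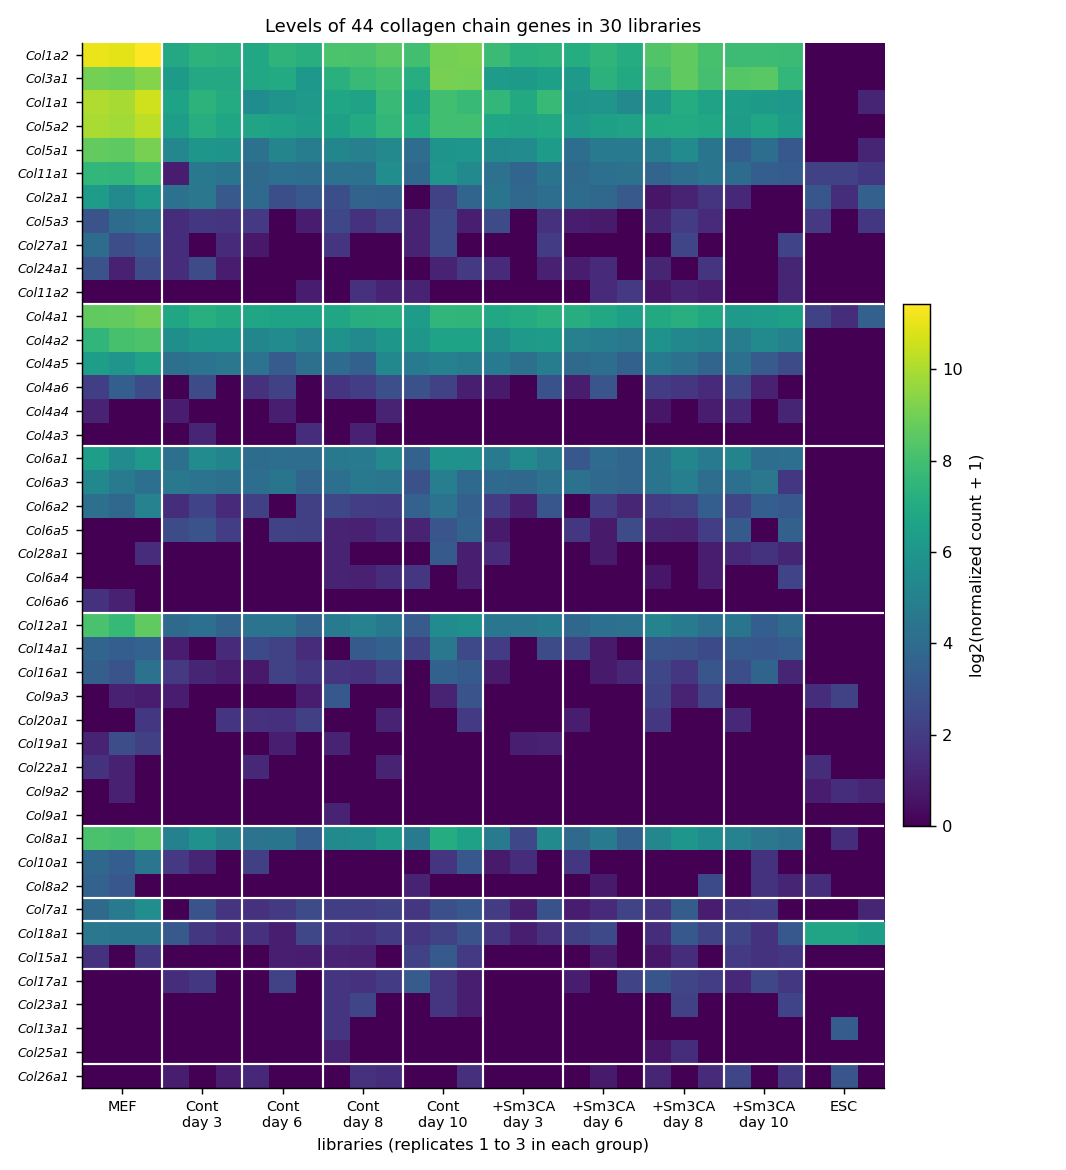
Level of each of the 44 collagen chain genes (rows, grouped by family from fibrillar at the top to Col26a1 at the bottom) in each of the 30 libraries (columns), as log2(normalized count + 1). Most genes with a level above background were highest in MEFs and near 0 in ESCs, where Col18a1 was the exception.

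Reads in collagen chain genes made up 0.388%, 0.369% and 0.621% of all reads in the 3 MEF libraries and 0.00675%, 0.00661% and 0.00671% in the ESC libraries. By day 3 the share in Cont was 0.0457%, 0.0658% and 0.0584%, below every MEF library and above every ESC library. In Cont it stood at 0.0442% to 0.0504% on day 6, 0.0694% to 0.114% on day 8, and 0.0619%, 0.175% and 0.168% on day 10. In +Sm3CA it stood at 0.0505% to 0.0738% on day 3, 0.0409% to 0.0553% on day 6, 0.0723% to 0.125% on day 8, and 0.0722%, 0.0702% and 0.0615% on day 10. The ranges of Cont and +Sm3CA overlapped on every day. On day 10 Cont replicate 1 lay within the range of +Sm3CA, and Cont replicates 2 and 3 lay above all +Sm3CA libraries. In bulk libraries such as these, fewer cells of a type and less RNA per cell cannot be told apart.

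**Figure D2:**
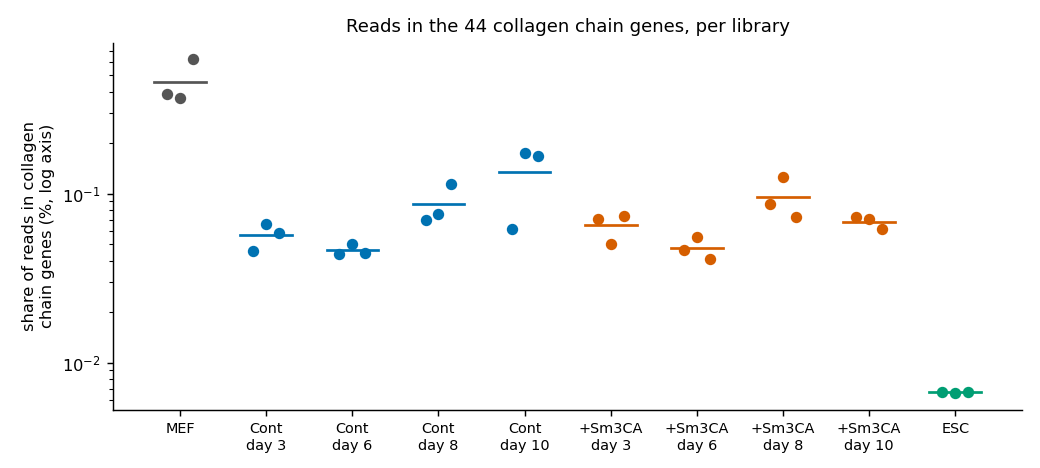
Share of reads in the 44 collagen chain genes (%, log axis) in each library (points) with the group mean (lines). The share was 0.369% to 0.621% in MEFs, and on day 10 Cont libraries 2 and 3 lay above the 3 +Sm3CA libraries while Cont library 1 did not.

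Nearly all collagen chain genes tested were lower in ESCs than in MEFs. Of the 19 members tested, 18 were lower and 1 was higher in ESCs than in MEFs, against 30.5% of all 10979 genes called lower and 29.1% called higher. Members read mainly in MEFs, such as Col7a1, passed the filter on low counts through MEFs, so their direction was largely fixed by it. These counts are therefore a description and not a test. The median log2 fold change of the 19 members was -8.99 as fitted and -5.81 with undetected genes set at their bound, against 0 for all genes. Col1a2, a chain of type I collagen, had 2181, 2000.5 and 2753 normalized counts in MEFs and 0 in all ESC libraries, which put it at least 577-fold lower. Col1a1, the other type I chain, had 1083, 975 and 1544 counts in MEFs and a single read in 1 ESC library, a 2801-fold lower mean with a counting interval of 535 to 117778. Col5a2 of type V collagen, which nucleates type I fibrils, had 997, 906 and 1242 counts in MEFs and none in ESCs, and was at least 262-fold lower. Col3a1, the chain of type III collagen, was at least 136-fold lower, the FACIT gene Col12a1 at least 74.1-fold lower and Col4a2 at least 63.4-fold lower, all with 0 reads in ESCs. Type VI genes Col6a1, Col6a2 and Col6a3 also had 0 reads in every ESC library.

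A few chains were still read in ESCs, mostly near the limit of 3 reads per library. The reads in the 3 ESC libraries were 4, 1 and 8 for Col4a1, 8, 1 and 8 for Col2a1, and 4, 2 and 2 for Col11a1. Col4a1 had 401, 412 and 496 counts in MEFs and 3.65, 1.81 and 10.3 in ESCs, a log2 fold change of -6.22 ± 0.35 (SE; edgeR adjusted p = 4.71e-19), whereas its neighbour Col4a2 had no read there. Col11a1, a minor fibrillar chain, had 189, 181 and 246 counts in MEFs and 3.65, 3.61 and 2.57 in ESCs. Col2a1, the chain of the main cartilage collagen, had 78.9, 42.3 and 70.0 counts in MEFs and 7.31, 1.81 and 10.3 in ESCs (log2 fold change -3.09 ± 0.54, edgeR adjusted p = 4.17e-06). Beside it, the summed level of 6 measured chondrocyte markers was 6.51 to 12.2 in MEFs and 1.81 to 3.86 in ESCs, with Matn1 and Ucma at 0 in MEFs. Col18a1, a basement membrane collagen whose cleaved end is endostatin, ran the other way. Its counts were 22.2, 20.6 and 20.7 in MEFs and 102, 101 and 83.6 in ESCs, so it was 4.51-fold higher in ESCs on the mean (log2 fold change 2.26 ± 0.42, edgeR adjusted p = 1.45e-05). It lay between 0 and 8.02 counts in all 24 reprogramming libraries, below MEFs and ESCs alike.

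The drop from MEFs to Cont on day 3 covered 18 of the 19 tested members, with 0 called higher, against 20.9% of all genes called lower and 22.6% called higher. Col7a1 and Col18a1 did not pass the filter in the fit of the reprogramming libraries, so for them a drop from MEFs was largely set by it. The median log2 fold change of the members was -2.82, against 0.0014 for all genes. The decrease differed in size between chains. Col12a1 fell from 287, 202 and 402 counts to 14.3, 16.9 and 11.4, a log2 fold change of -4.29 ± 0.37 (edgeR adjusted p = 1.9e-12). Col1a2 fell to 119, 167 and 151 counts (-3.87 ± 0.26) and Col11a1 to 0.891, 23.3 and 20.3 (-3.71 ± 0.43). Col5a2 (-3.16), Col1a1 (-3.08), Col5a1 (-2.92) and Col8a1 (-2.82), a chain of the hexagonal lattices, formed the middle of the range. Type IV chains fell less than these, with log2 fold changes of -1.98 for Col4a2, -1.89 for Col4a5 and -1.71 for Col4a1. This was not particular to type IV, as the fibrillar chain Col2a1 (-1.88) and Col18a1 (-2.20) fell by similar amounts. Col3a1 changed from 525, 478 and 632 to 73.1, 118 and 119 counts, a log2 fold change of -2.29 ± 0.33. Col6a3 was the member not called, with 38.9, 25.0 and 17.3 counts in MEFs and 23.2, 19.5 and 17.9 on day 3, and the call of its partner Col6a1 (log2 fold change -0.94) was lost without Cont day 3 replicate 1 (adjusted p = 0.233).

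Few collagen genes were called between neighbouring days of Cont. From day 3 to day 6 edgeR called 1 of 19 members lower (1.98% of all genes) and 0 higher (2.94%), while 5 members had an unadjusted p under 0.05, all lower, against 17.6% of all genes in either direction. That gene was Col1a1, which had 98.1, 167 and 130.1 counts on day 3 and 46.4, 59.4 and 72.03 on day 6 (log2 fold change -1.14 ± 0.31, edgeR adjusted p = 0.0194), and the call was lost without Cont day 3 replicate 2 or 3 or day 6 replicate 1 or 2 (adjusted p up to 0.135 in Col1a1). From day 6 to day 8, 3 members were called higher, Col1a2, Col1a1 and Col8a1, against 0.92% of all genes. Col8a1 went from 19.4, 21.1 and 9.66 to 43.0, 46.4 and 71.0 counts (log2 fold change 1.69 ± 0.44), and its adjusted p of 0.0402 became 0.0586 when the replicate number entered as a block. The count of 3 fell to 0 without Cont day 6 replicate 1 or day 8 replicate 3 and to 1 without Cont day 6 replicate 2 or 3. From day 8 to day 10 edgeR called 0 members, as did the DESeq2 Wald test, against 1.26% of all genes called, and 5 of 19 had an unadjusted p under 0.05, against 11.4% of all genes. Without Cont day 10 replicate 1 Col3a1 was called higher in that step (log2 fold change 1.35, adjusted p = 0.0063).

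Between day 3 and day 10 of Cont, 8 of 19 members rose and 0 fell, against 10.7% of all genes called higher and 8.35% called lower. The median log2 fold change of the members was 0.91, against 0.08 for all genes. Col3a1 rose from 73.1, 118 and 119 to 138, 538 and 532 counts (log2 fold change 1.93 ± 0.33, edgeR adjusted p = 2.87e-05), and Col1a2 from 119, 167 and 151 to 246, 533 and 566 (1.59 ± 0.24). Both were called under all 12 alternatives run, and without Cont day 10 replicate 1 their log2 fold changes were 2.33 and 1.88. Col5a2 rose from 82.0, 137 and 107 to 127, 249.7 and 246 counts (0.91 ± 0.24). The other rises were in Col11a1, Col8a1, Col12a1, Col6a2 and in Col14a1, a FACIT gene with 3 reads in all on day 3, whose mean ratio was 12.4 with a counting interval of 3.19 to 53.5. Col1a1, Col5a1, Col4a1 and Col4a2 were not called, with log2 fold changes of 0.45, -0.24, 0.21 and 0.51. Without Cont day 10 replicate 1 the log2 fold change was 1.15 for Col5a2, 1.53 for Col8a1, 1.76 for Col12a1 and 1.79 for Col11a1. It was then 2.57 for Col6a2 and 3.62 for Col14a1. For the uncalled genes it was 0.75 for Col1a1, 0.14 for Col5a1, 0.50 for Col4a1 and 0.68 for Col4a2, so that Col5a1 changed sign. In every one of the 8 genes the lowest day 10 library was replicate 1, except Col6a2, and the groups overlapped in Col5a2, Col8a1, Col11a1 and Col12a1. The count of 8 fell to 2 without Cont day 3 replicate 1, to 3 without day 10 replicate 2 and to 5 without day 3 replicate 3 or day 10 replicate 3, and it was 7 when the replicate number entered as a block, Col8a1 being lost (adjusted p = 0.0766). The summed level of 8 haematopoietic and macrophage markers was 997, 1123 and 394 on day 3 and 626, 2672 and 2565 on day 10, with replicate 1 lowest on day 10, and that of 12 fibroblast markers was 1928, 2688 and 2843 on day 3 and 1404, 2670.3 and 2475 on day 10. Their part in the collagen values was not tested.

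In +Sm3CA the same interval gave both directions. From day 3 to day 10, 2 of 19 members rose and 6 fell, against 14.2% of all genes called higher and 12.2% called lower, and the median of the members was -0.48 against 0.06 for all genes. Col3a1 rose from 79.1, 74.2 and 87.6 to 338, 359 and 186 counts (log2 fold change 1.88 ± 0.33, edgeR adjusted p = 4.21e-05). Col16a1, a FACIT gene, also rose, from a single read in the 3 day 3 libraries to 5.61, 12.02 and 1.30 counts, a 24.7-fold higher mean with a counting interval of 3.46 to 935. Col1a1 fell from 186, 121 and 211 to 81.3, 74.3 and 67.7 counts (-1.21 ± 0.31), and Col5a1, the partner chain of Col5a2, from 43.0, 44.5 and 77.2 to 9.81, 16.4 and 7.81 (-2.21 ± 0.41). Col2a1 fell from 20.7, 13.0 and 16.7 counts to 1 read in the 3 day 10 libraries, a 36.0-fold lower mean with a counting interval of 7.05 to 1644. The type IV chains Col4a1 (-0.75), Col4a2 (-0.94) and Col4a5 (-1.20) fell together. Col1a1, Col2a1, Col3a1 and Col5a1 were called under all 12 alternatives, while Col4a1, Col4a2 and Col4a5 lost the call without +Sm3CA day 3 replicate 3, which left 3 members lower, and Col16a1 lost it without +Sm3CA day 10 replicate 2 (adjusted p = 0.124). Of the 12 alternatives, the call was lost in 5 for Col4a1, 3 for Col4a2 and 6 for Col4a5. With 1 library left out at a time, 3 to 5 members were lower.

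**Figure D3:**
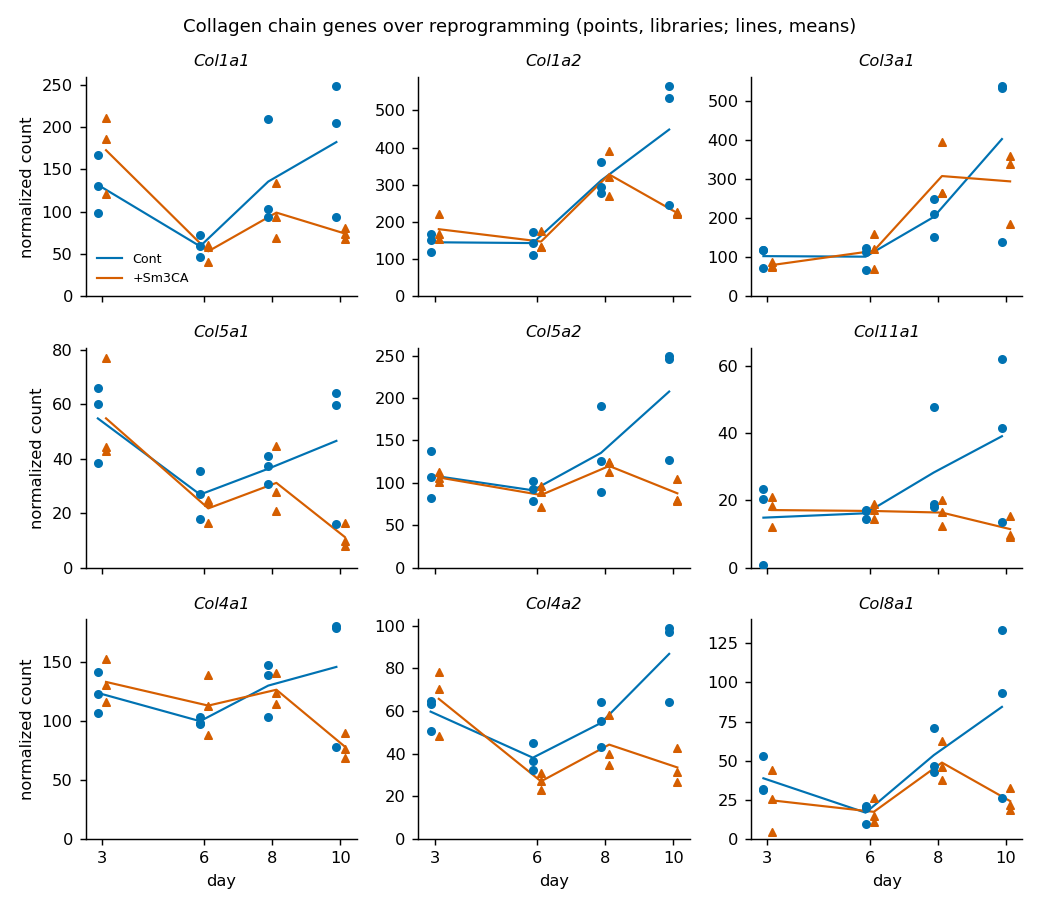
Normalized counts (y axes, from 0) of 9 collagen chain genes on days 3, 6, 8 and 10 in Cont (circles) and +Sm3CA (triangles), with each point a library and lines through the group means. In 8 of them the day 10 mean was lower in +Sm3CA and the difference was called, with Col3a1 the gene that was not called.

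The comparison of +Sm3CA with Cont on each day asked what constitutively active SMAD3 changed at a matched time. On days 3, 6 and 8 no member was called by edgeR, nor by the DESeq2 Wald test. The share of all genes called was 0.0195% on day 3, 0.00977% on day 6 and 1.04% on day 8, and the number of members with an unadjusted p under 0.05 was 0, 0 and 1, against 5.11%, 4.16% and 15.2% of all genes. On day 3 Col1a2 had 220.3, 154 and 168 counts in +Sm3CA and 119, 167 and 151 in Cont, and Col1a1 had 186, 121 and 211 against 98.1, 167 and 130.1, with overlapping groups in both. The nearest to the threshold was Col2a1 on day 8, with 0.618, 1.23 and 2.42 counts in +Sm3CA and 5.66, 11.6 and 10.7 in Cont (log2 fold change -2.70 ± 0.73, edgeR adjusted p = 0.0539, range 0.008 to 0.194 over the alternatives), and DESeq2 gave no adjusted p for it. It passed the threshold without Cont day 8 replicate 1 or +Sm3CA day 8 replicate 3. On day 8 Col3a1 did not overlap, with 264, 396 and 264 counts in +Sm3CA and 152, 210.0 and 249 in Cont, but was not called (0.60 ± 0.30, edgeR adjusted p = 0.334), beside 7.57% of all genes that were higher without overlap.

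On day 10, 8 of 17 members were lower in +Sm3CA and 0 were higher, against 2.74% of all 10237 genes called lower and 0.83% called higher. The median log2 fold change of the members was -1.22, against -0.0051 for all genes, and 16 of the 17 values were below 0. An unadjusted p under 0.05 was found for 12 members, all lower, against 15.9% of all genes in either direction. The fibrillar chains among the 8 were both type I chains, both tested type V chains and Col11a1. Col1a1 had 81.3, 74.3 and 67.7 counts in +Sm3CA and 93.8, 249 and 204 in Cont, with all +Sm3CA libraries below all Cont libraries (log2 fold change -1.28 ± 0.30, edgeR adjusted p = 0.00771). Col1a2 had 227, 224 and 221 counts in +Sm3CA and 246, 533 and 566 in Cont, again without overlap (-0.98 ± 0.22, edgeR adjusted p = 0.00445). Col5a2 had 79.9, 105 and 78.1 counts against 127, 249.7 and 246 (-1.22 ± 0.24, edgeR adjusted p = 0.00108). Col5a1 had 9.81, 16.4 and 7.81 counts against 16.05, 59.7 and 64.1, so that its groups overlapped at Cont replicate 1 (-2.00 ± 0.42, edgeR adjusted p = 0.00299). Col11a1 had 15.4, 9.83 and 9.11 counts against 13.6, 62.1 and 41.5, also overlapping at that library (-1.76 ± 0.52, edgeR adjusted p = 0.0465).

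The other 3 genes lower on day 10 were network-forming chains. Col4a2 had 26.6, 42.6 and 31.3 counts in +Sm3CA and 64.2, 99.2 and 97.1 in Cont, and Col4a1 68.7, 76.5 and 89.8 against 77.8, 180.4 and 179. Col4a2 did not overlap (log2 fold change -1.34 ± 0.26, edgeR adjusted p = 0.00115), while Col4a1 overlapped at Cont replicate 1 (-0.88 ± 0.23, edgeR adjusted p = 0.0194). Col8a1 had 32.2, 21.8 and 18.2 counts against 25.9, 134 and 93.3 (-1.80 ± 0.44, edgeR adjusted p = 0.0122). Col4a5, which pairs with other type IV chains, did not overlap, with 16.8, 8.74 and 5.21 counts against 25.9, 31.1 and 27.3, but missed the threshold (-1.45 ± 0.45, edgeR adjusted p = 0.0614). Type VI chains Col6a1, Col6a2 and Col6a3 and the FACIT genes Col12a1, Col14a1 and Col16a1 were not called, with log2 fold changes of -0.85, -0.83, -0.20, -1.25, -0.26 and 0.013. Without Cont replicate 1 these values were -1.28, -0.94, -0.56, -1.69, -0.64 and -0.52, and that of Col4a5 was -1.50. In all, 6 members were without overlap in the lower direction, against 11.9% of all genes.

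**Figure D4:**
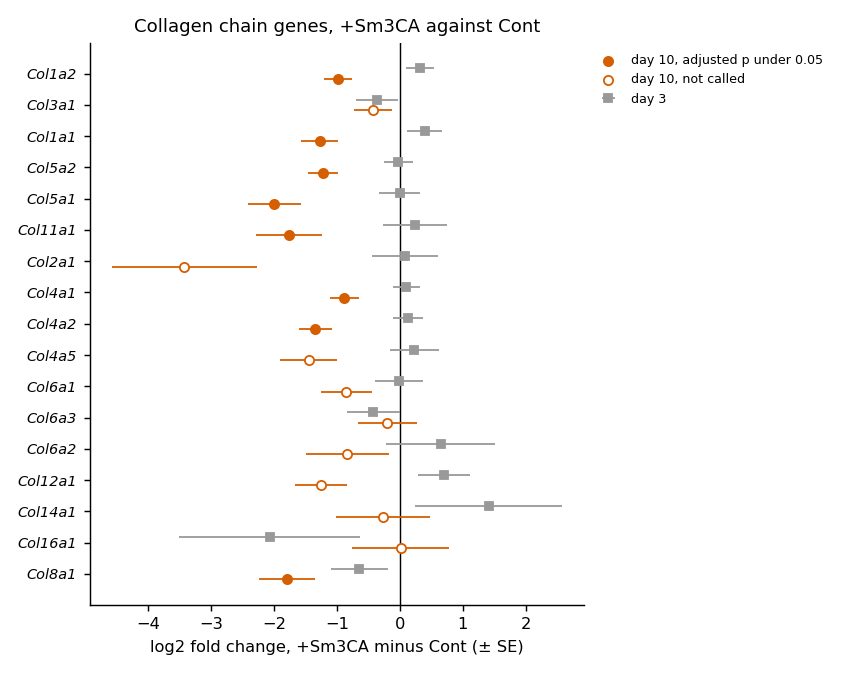
Log2 fold change of +Sm3CA minus Cont (x axis, ± SE) for the 17 collagen chain genes tested, on day 3 (squares) and on day 10 (circles, filled where the edgeR adjusted p was under 0.05). On day 10, 16 of the 17 values were below 0 and 8 were called.

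The day 10 count depended on single libraries. The counts below are of members alone, as the share of all genes called without each library is not given here. Without Cont replicate 1, 11 members were called lower, Col6a1, Col2a1 and Col12a1 being added to the 8. The log2 fold changes were then -1.58 for Col1a1, -1.27 for Col1a2, -1.47 for Col5a2, -2.38 for Col5a1, -2.15 for Col11a1, -1.51 for Col4a2, -1.17 for Col4a1 and -2.21 for Col8a1, each farther from 0 than with all libraries. Replicate 1 was the lowest Cont library in each of these genes, so leaving it out had to move the values this way. By contrast the count fell to 3 without Cont replicate 2, to 4 without Cont replicate 3 and to 5 without +Sm3CA replicate 2 or 3. Col4a2, Col5a1 and Col5a2 were called under all 14 alternatives. The summed level of the 12 fibroblast markers moved in the same way, at 1404, 2670.3 and 2475 in Cont and 1374, 1329 and 1135 in +Sm3CA on day 10, with no marker at 0. Of the 11 markers tested, 5 were lower in +Sm3CA (Vim, Fn1, S100a4, Postn and Prrx1), against 2.74% of all genes called lower. The summed level of 8 haematopoietic and macrophage markers was 626, 2672 and 2565 in Cont and 972, 888 and 1591 in +Sm3CA, with Mcpt8 at 0 in +Sm3CA. Of the 7 tested, 2 were lower in +Sm3CA (Fcer1g and Mcpt8). The summed level of 8 pluripotency markers was 658, 474 and 1047 in Cont and 1079, 1196 and 2261 in +Sm3CA. Here 2 of the 7 tested, Zfp42 and Dppa5a, were higher in +Sm3CA, against 0.83% of all genes called higher. The part of these cell types in the collagen values was not tested.

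The change of the +Sm3CA difference between day 3 and day 10 was tested as an interaction. It was below 0 and called for 3 of 17 members, against 0.899% of all genes called lower. These were Col1a1 (-1.67 ± 0.41, edgeR adjusted p = 0.0283), Col1a2 (-1.30 ± 0.31, adjusted p = 0.0257) and Col4a2 (-1.47 ± 0.36, adjusted p = 0.0277), on the log2 scale. The median of the 17 members was -1.47, against -0.015 for all genes. Without Cont day 10 replicate 1 the interaction was called for 7 members, adding Col5a1, Col5a2, Col4a1 and Col12a1, and it was -1.98 for Col1a1, -1.59 for Col1a2 and -1.63 for Col4a2. As that library was the lowest of Cont on day 10 in these genes, leaving it out had to move the values this way. The interaction was called for 0 members without Cont day 3 replicate 1 or 3, Cont day 10 replicate 2 or 3, or +Sm3CA day 10 replicate 3, and for 1 without +Sm3CA day 3 replicate 3 or day 10 replicate 1 or 2. These counts with a library left out are of members alone, as the share of all genes called is not given here.

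Col3a1, whose type III collagen is laid down together with type I in most soft tissues, was not called on day 10. Its counts were 338, 359 and 186 in +Sm3CA and 138, 538 and 532 in Cont, with overlap (log2 fold change -0.43 ± 0.30, edgeR adjusted p = 0.523, range 0.0566 to 0.883 over the alternatives), and without Cont replicate 1 the log2 fold change was -0.84. The ratio of Col3a1 to Col1a1 reads within a library, a measure chosen after the values were seen, does not depend on library size. In MEFs it was 0.485, 0.490 and 0.409. On day 3 it was 0.745, 0.705 and 0.912 in Cont and 0.426, 0.611 and 0.416 in +Sm3CA, lower in every +Sm3CA library. On day 8 it was 1.47, 2.24 and 1.18 in Cont and 3.81, 2.95 and 2.82 in +Sm3CA, and on day 10 it was 1.47, 2.16 and 2.60 in Cont and 4.16, 4.84 and 2.75 in +Sm3CA, now higher in every +Sm3CA library. On day 6 the groups overlapped. The ratio of Col3a1 to its chromosomal neighbour Col5a2 had the same order, at 1.09, 2.15 and 2.17 in Cont and 4.23, 3.43 and 2.38 in +Sm3CA on day 10. The exact two-sided permutation test gave p = 0.1 on days 3, 8 and 10 for both ratios, or 0.2 after Benjamini-Hochberg adjustment over 16 ratio tests, and 0.1 is the smallest p that 3 libraries against 3 allow. The ratio of the type I chains, Col1a2 to Col1a1, overlapped on day 3 with 1.21, 1.00 and 1.16 in Cont and 1.19, 1.27 and 0.797 in +Sm3CA. On day 10 it was also higher in every +Sm3CA library, at 2.62, 2.14 and 2.77 in Cont and 2.79, 3.02 and 3.27 in +Sm3CA, with the same p of 0.1 in the exact permutation test. The ratio of Col4a1 to Col4a2, also among the 16 tests, overlapped on days 3, 8 and 10. On day 6 it was higher in every +Sm3CA library, at 2.81, 2.17 and 3.03 in Cont and 4.5, 4.14 and 3.82 in +Sm3CA (exact permutation test, p = 0.1).

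**Figure D5:**
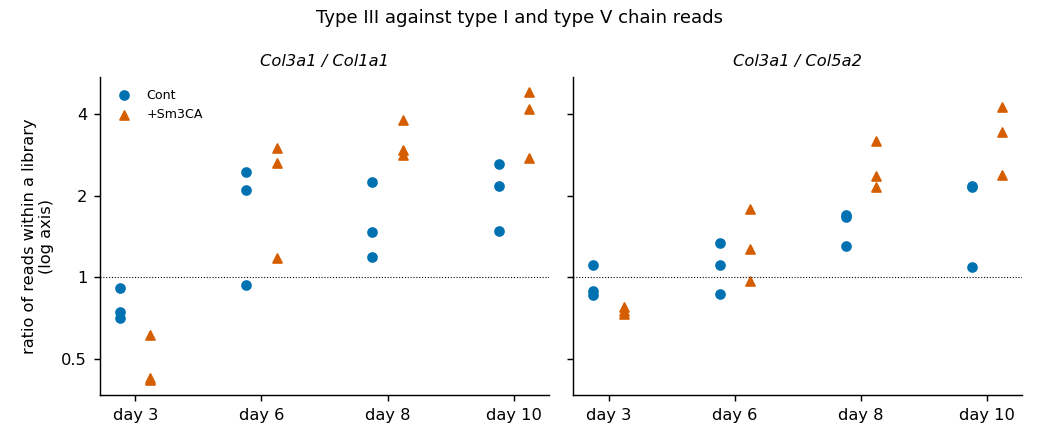
Ratio of Col3a1 reads to Col1a1 reads (left) and to Col5a2 reads (right) within each library (log axis), in Cont (circles) and +Sm3CA (triangles) by day, with the dotted line at a ratio of 1. Both ratios were lower in +Sm3CA on day 3 and higher on days 8 and 10 without overlap.

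The members not tested were at low levels throughout. Col10a1 and Col5a3 reached group means of 14.9 and 13.9 counts, both in MEFs, and every other untested member stayed below a group mean of 10. Among the tested, Col7a1 of the anchoring fibrils of skin had 14.4, 26.1 and 47.5 counts in MEFs and at most 9.19 in any reprogramming library. Col16a1 and Col14a1 had group means of 11.6 and 11.1 counts in MEFs.

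Genes that modify, fold, export, cleave, crosslink and bind collagen were read from 6 lists with 64 genes in the table. Between ESCs and MEFs, 44 of the 53 tested were lower and 4 higher, against 30.5% of all genes called lower and 29.1% called higher. For the lists the median log2 fold change was -3.13, and for all genes it was 0. Between MEFs and Cont on day 3, 32 were lower and 8 higher, against 20.9% and 22.6% of all genes. The lists then had a median of -1.22, against 0.0014 for all genes. From day 3 to day 10 of Cont 5 of the 53 rose and 6 fell, near the 10.7% and 8.35% of all genes called, with a median of -0.086 against 0.08 for all genes. Among those called the crosslinking enzyme Lox rose (log2 fold change 0.81 ± 0.25) and Loxl4 fell (-1.36 ± 0.42). The procollagen processing enhancers went apart, with Pcolce higher (0.63 ± 0.20) and Pcolce2 lower (-1.53 ± 0.24). The prolyl hydroxylase subunit P4ha2 (-1.27 ± 0.34) and the collagen chaperone Fkbp10 (-0.999 ± 0.27) fell, and Leprel4, a partner in the hydroxylase complexes, rose (0.90 ± 0.28). Of the basement membrane partners, the laminin gene Lama5 (2.52 ± 0.46) rose, and the laminin gene Lamb1 (-0.88 ± 0.23) and Nid2 (-0.99 ± 0.29) fell.

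On day 10, 6 of the 46 tested genes of these lists were lower in +Sm3CA than in Cont and 1 was higher, against 2.74% and 0.83% of all genes, and their median log2 fold change was -0.31 against -0.0051 for all genes. Lox, which starts the crosslinks of fibrillar collagen, had 122, 101 and 67.7 counts in +Sm3CA and 161, 366 and 341 in Cont (log2 fold change -1.57 ± 0.25, edgeR adjusted p = 0.00011). Loxl2, which crosslinks type IV collagen, had 30.8, 20.8 and 11.7 counts against 32.1, 82.4 and 73.5 (-1.57 ± 0.33, edgeR adjusted p = 0.00326). In both genes all +Sm3CA libraries lay below all Cont libraries. Itgb1, the common chain of the collagen-binding integrins, was lower by a log2 fold change of -0.87 ± 0.17, and Sparc, a collagen-binding matrix protein, of -1.07 ± 0.23. Bmp1, the procollagen C-proteinase (-1.20 ± 0.35), and Fkbp10 (-1.20 ± 0.32) were the remaining genes lower. Nid1, a linker between laminin and type IV collagen, was higher, with 137, 229 and 206 counts in +Sm3CA and 91.4, 139.8 and 114 in Cont (0.75 ± 0.20, edgeR adjusted p = 0.0237).

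ESCs and Cont on day 10 were still far apart, since 17 of 19 members were lower and 1 higher in ESCs, against 30.3% of all genes called lower and 21.5% called higher. The gene higher was Col18a1, 22.7-fold on the mean (log2 fold change 4.42 ± 0.52, edgeR adjusted p = 1.91e-09, and 4.18 without Cont replicate 1). Col18a1 passed the filter through groups outside reprogramming, so its direction here was largely set by it. The member not called was Col2a1, with 7.31, 1.81 and 10.3 counts in ESCs and 0, 3.58 and 12.2 in Cont on day 10.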

How the data were processed

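Per the labels and the study's methods, cells were lysed, reverse transcribed with template switching and sequenced in 84 wells, and the authors deposited a table of raw read counts for each well. These are read counts, not molecule counts, so PCR copies are included. The submitters' processing notes name Bowtie 0.12.9, DESeq2 1.6.3 and the build mm10. The labels and the methods differ in the number of cells per sample and the vitamin C dose. Wells were summed to 30 libraries, of 2 wells each on day 10 and of 3 wells each in all other groups. Day 10 libraries held 1008596 to 1434427 reads, which limits low-count members in comparisons with day 10. Levels are counts divided by DESeq2 1.42.0 size factors. Tests used edgeR 4.0.16 in R 4.3.3 (TMM, filterByExpr, quasi-likelihood) with Benjamini-Hochberg adjustment over all genes tested and a threshold of 0.05. Comparisons with MEFs or ESCs and over days used 1 fit of 30 libraries, and those of +Sm3CA with Cont 1 fit of 24. The series text pairs replicate numbers over days within each series, while same-numbered Cont libraries had deviations correlated at -0.12 to 0.088 (mean 0.0028) and +Sm3CA libraries at -0.088 to 0.18. Fold changes against groups without reads are bounds from 3 reads per library. Intervals cover counting error only. Positions and promoters are from RefSeq GRCm38.p6, and steps were tested on simulated data. Members and lists were chosen with earlier results of these data known. Members with a group mean of at least 50, those called between +Sm3CA and Cont, and those called between ESCs and MEFs or over Cont days with a mean of at least 10 are named, as are up to 4 called genes of each list, of which 1 is not reported here. Alternatives were other normalization, test, filter, threshold, libraries and blocks, and each library left out.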

Additional observations from a re-analysis of the deposited data

Results flagged for a closer look

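The difference between +Sm3CA and Cont differed between day 10 and day 3 by the interaction test for 3 collagen chain genes. The interaction was -1.67 for Col1a1, -1.30 for Col1a2 and -1.47 for Col4a2 on the log2 scale. Each of these values kept its sign under all 18 alternatives, and the calls were lost in 8 of them for Col1a1 and in 9 each for Col1a2 and Col4a2. With 1 library left out at a time, the interaction was called for 0 to 7 members, so these calls depended on single libraries. The share of all genes called in those fits is not given here.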

How the results depend on the processing

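The number of members called was within 1.5 times of the reported one with other size factors, the DESeq2 Wald test, library sizes without collagen genes and all 30 libraries in the fit. The cause of the changes under the other alternatives was not tested. The share of all genes called under each alternative is not given here, so these counts are of members alone. With an adjusted p under 0.01, the count went to 3 higher from day 3 to 10 in Cont, 0 lower from day 3 to 6, 1 higher from day 6 to 8, 5 lower for +Sm3CA against Cont on day 10, 0 for the interaction, and 1 higher and 3 lower from day 3 to 10 in +Sm3CA. Without the filter on low counts, it was 1 lower from day 3 to 10 and 3 lower from day 3 to 6 in Cont, 1 higher from day 8 to 10, 1 higher from MEFs to day 3, 1 lower on day 8 and 7 lower for the interaction. Under the replicate block the interaction was called for 5 members, though no pairing of Cont with +Sm3CA is stated. No other count moved beyond 1.5 times under the block.

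Leaving out 1 library at a time gave 2 to 8 members higher and 0 to 1 lower from day 3 to 10 in Cont, 0 to 1 lower from day 3 to 6, 0 to 3 higher from day 6 to 8, 0 to 1 higher from day 8 to 10, 3 to 11 lower for +Sm3CA against Cont on day 10, 0 to 1 lower on day 8, 0 to 7 lower for the interaction, and 1 to 2 higher and 3 to 5 lower from day 3 to 10 in +Sm3CA. It gave 16 to 18 lower from MEFs to day 3. Values of single members were followed where the member was called, and for a few uncalled ones of +Sm3CA against Cont on days 8 and 10. Of these values under alternatives, 1031 kept their direction and side of the threshold, 121 lost the call, 10 gained it and 0 changed sign. Other uncalled values were not followed, so gains and sign changes among them are not counted. Of the 10 groups, the share of reads in collagen genes moved by more than the spread between replicates in 5 when the 10 genes with most reads were left out. Depth limits statements on members at or under 3 reads per library.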
